A study of Mus musculus with 10 samples.

Results

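Sorted splenic type 2 conventional dendritic cells (cDC2) gave array signal for several genes better known from lymphocytes and blood progenitors. Cd22, Bank1, Cd5, Cd7, Havcr2 and Kit were chosen from this series by name, as lymphocyte or progenitor genes that were lower in Notch2-11cKO cDC2. These 6 genes, of 19938 measured, each had 1 probe set, so no choice between probe sets was needed. Because the arrays themselves led to the choice, the genotype differences of these genes are given as a description with no test. Their responses to treatment were tested, with the limit that the same arrays enter both.

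RNA of sorted cDC2 was measured on 10 one-colour arrays in 4 groups. Notch2-11cKO mice carried CD11c-Cre and floxed Notch2 alleles (CD11c-Cre+ Notch2f/f), and the others were wild type (WT). In each genotype, 3 arrays came from mice given an intraperitoneal dose of 200000000 sheep red blood cells (SRBC), a foreign antigen used for immunization, 24 hours earlier, and 2 came from untreated mice. The groups are therefore Notch2-11cKO SRBC, Notch2-11cKO untreated, WT SRBC and WT untreated. All cells came from spleens digested with collagenase B and DNase 1 and were enriched for CD11c+ cells before sorting. The CD11c promoter drives Cre in any cell that expresses CD11c, so deletion is not limited to cDC2. Whether the WT mice carried Cre, and the strain, age and sex of the mice, are not given in the sources used here. Nothing in the labels says that replicates were separate mice, so p-values measure the spread between these arrays, which may be technical.

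Notch2 is a receptor that, once cut after binding a ligand on a neighbouring cell, releases a fragment that enters the nucleus and acts with the DNA-binding protein RBPJ. In the spleen it is known to be required for the ESAM-high subset of cDC2. The genes described here have roles in lymphocyte signalling. CD22 is a sialic-acid-binding lectin (Siglec) of B cells that recruits phosphatases to dampen the B cell receptor. BANK1 is a B cell scaffold that links the receptor to kinases and calcium release; it is a cytosolic protein, so the other 5 but not BANK1 are surface receptors. CD5, a scavenger receptor cysteine-rich protein, restrains antigen receptor signalling in T cells and B-1a cells. CD7 is an immunoglobulin-family glycoprotein of T and NK cells, HAVCR2 (TIM-3) is an inhibitory receptor of T cells and myeloid cells, and KIT is the tyrosine kinase receptor for stem cell factor.

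In the RefSeq annotation of GRCm38.p6, Cd22 lies at chr7:30865404-30880342, Bank1 at chr3:136053363-136326141 and Cd5 at chr19:10718107-10739026. Havcr2 lies at chr11:46454931-46481255, Cd7 at chr11:121036747-121039478 and Kit at chr5:75574987-75656722. RefSeq promoter windows were found for 5 of the 6 genes, all but Cd7, and the 250 bases before the start of transcription were searched on both strands for 4 motifs. The RBPJ core TGGGAA was found in 2 of the genes, Cd22 and Cd5, and in 21.6% of 32851 mouse windows of the same length. A PU.1 box, GAGGAAGT, was found in Cd5 and Havcr2 and in 2.44% of windows. The RUNX core TGTGGT was found in Havcr2 (14% of windows), and an ETS-IRF composite was found in Bank1 as TTTCACTTCC on the reverse strand (2.3% of windows). None of the 4 motifs was found in the windows of Kit. No match overlapped another in these genes, and a match describes letters, not binding. The windows of Cd22 (chr7:30879029-30879278, minus strand), Cd5 (chr19:10738975-10739224, minus strand) and Havcr2 (chr11:46454681-46454930, plus strand) are shown because they hold the RBPJ core, through whose factor Notch2 acts, or share the PU.1 box. The capitals mark the matches, and each window ends 1 base before the start site. The start used for Cd22 lies 1314 bases inside the outermost RefSeq end of the gene.
Cd22: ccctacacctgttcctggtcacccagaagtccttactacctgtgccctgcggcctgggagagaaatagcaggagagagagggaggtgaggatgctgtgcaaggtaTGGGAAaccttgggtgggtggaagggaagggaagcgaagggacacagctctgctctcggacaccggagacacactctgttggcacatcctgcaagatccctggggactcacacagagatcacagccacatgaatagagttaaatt
Cd5: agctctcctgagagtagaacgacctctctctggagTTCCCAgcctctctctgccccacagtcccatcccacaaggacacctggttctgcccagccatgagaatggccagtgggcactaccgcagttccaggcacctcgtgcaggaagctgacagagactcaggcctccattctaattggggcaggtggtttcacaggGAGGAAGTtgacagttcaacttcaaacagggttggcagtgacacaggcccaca
Havcr2: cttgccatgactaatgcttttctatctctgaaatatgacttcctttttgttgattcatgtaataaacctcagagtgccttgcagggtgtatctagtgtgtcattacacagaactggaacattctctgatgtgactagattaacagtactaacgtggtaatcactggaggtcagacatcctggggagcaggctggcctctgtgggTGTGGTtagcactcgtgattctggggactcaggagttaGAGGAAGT

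The arrays were of even brightness, with medians of 29.5 to 31.7 in linear intensity, and their number limits the precision. Over the brighter genes the SRBC arrays WT SRBC 1 (r of 0.929 and 0.928 with the other WT SRBC arrays, against 0.984 between those) and Notch2-11cKO SRBC 3 (0.947 and 0.936, against 0.972) stood apart from their groups. Calls of the 6 genes that change without this pair, and calls of list genes that are lost without it, are given both ways. List genes that pass only without the pair are not given. Notch2 itself did not check the labels: its log2 intensity was 7.23 to 7.96 in Notch2-11cKO SRBC, 8.17 to 8.37 in Notch2-11cKO untreated, 7.09 to 7.58 in WT SRBC and 8.11 to 8.14 in WT untreated arrays, and the part of the gene that its probe set covers is not given. The sorted cells expressed dendritic cell genes in both genotypes. Log2 intensity of Itgax, encoding CD11c, was 9.36 to 10.51 in Notch2-11cKO and 9.02 to 10.16 in WT arrays, and that of the transcription factor Zbtb46 was 5.97 to 7.04 in Notch2-11cKO and 6.30 to 7.19 in WT arrays. Each array averages all sorted cells, so fewer cells that express a gene and less RNA in each cell cannot be told apart.

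All 6 genes were lower in Notch2-11cKO than in WT cDC2 in untreated mice, by 2.77-fold for Cd5 to 12.9-fold for Cd7, and all 6 were lower after SRBC, by 1.34-fold for Bank1 to 7.41-fold for Havcr2. No array of one genotype overlapped those of the other for any of the 6 at either time. Of all genes 26.8% were lower in Notch2-11cKO without overlap in untreated mice, 10.4% after SRBC and 5.39% at both, but the choice of the genes used this contrast, so nothing is read from these counts. The median log2 difference of the 6 was -2.47 untreated and -1.33 after SRBC, against -0.024 and -0.020 over all genes.

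**Figure D1:**
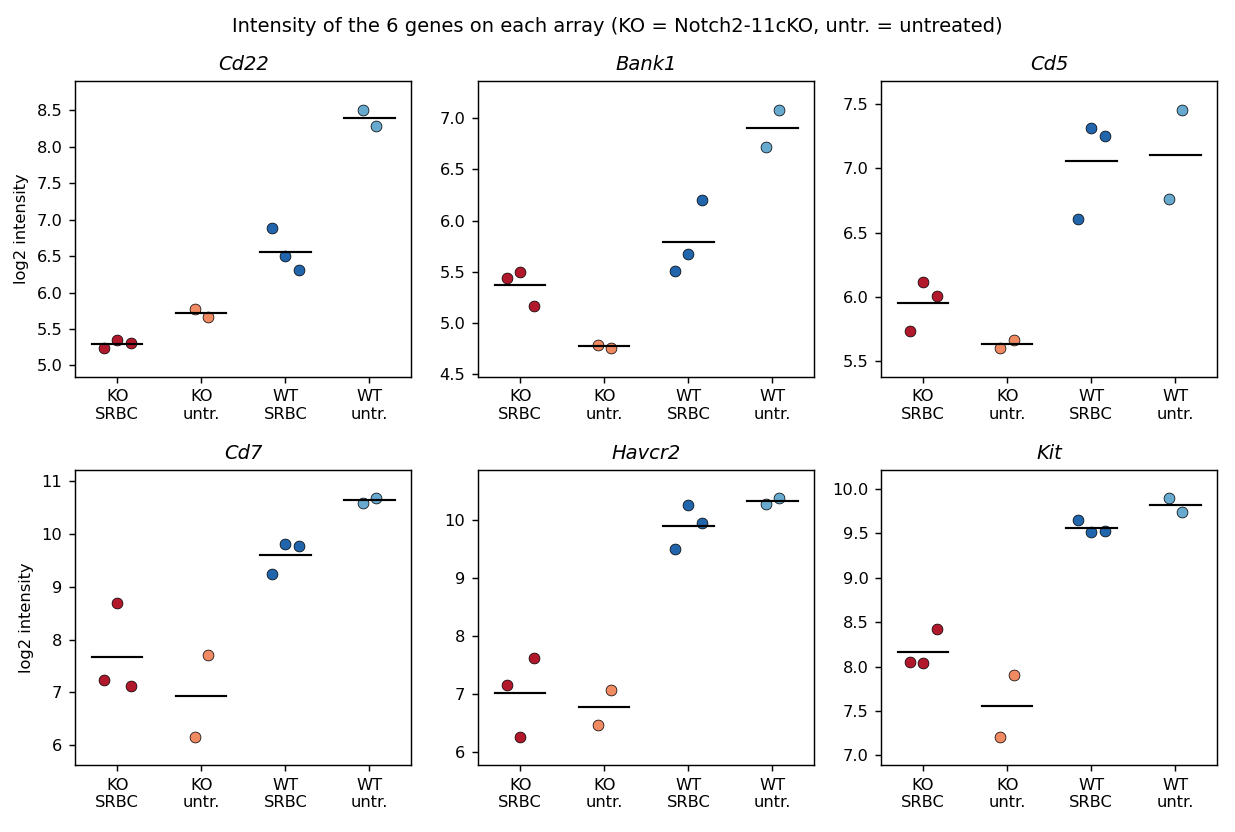
Log2 intensity (y axis) of each gene on each of the 10 arrays, by group (x axis), with a line at the group mean. For all 6 genes the WT untreated mean is the highest and every Notch2-11cKO array lies below every WT array given the same treatment.

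Among the B cell genes, Cd22 had an intensity of 54.5 and 51.0 in Notch2-11cKO untreated arrays, against 364 and 312 in WT untreated arrays. After SRBC it was 37.8, 40.8 and 39.6 in Notch2-11cKO, against 118, 90.5 and 79.1 in WT. The Notch2-11cKO arrays were uniformly low, and the gap between the genotypes was 6.4-fold untreated and 2.4-fold after SRBC. Bank1 had 27.6 and 27.0 in Notch2-11cKO untreated arrays, against 105 and 136 in WT untreated arrays. After SRBC its values were 43.5, 45.2 and 35.8 in Notch2-11cKO, against 45.4, 51.0 and 73.8 in WT. The groups were thus almost touching after SRBC, with the lowest WT array just above the highest mutant array. The mutant values of Bank1 lay near the median intensity of the arrays, 29.5 to 31.7, and no detection calls were used.

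Among the T cell genes, Cd5 had an intensity of 48.6 and 50.9 in Notch2-11cKO untreated arrays, against 108 and 176 in WT untreated arrays. After SRBC it was 53.2, 69.5 and 64.5 in Notch2-11cKO, against 97.3, 159 and 152 in WT. Cd5 had the smallest gap of the 6 without treatment, and its WT arrays spread widely within each group. Cd7 had 71.5 and 210 in Notch2-11cKO untreated arrays, against 1537 and 1634 in WT untreated arrays. After SRBC it was 150, 414 and 139 in Notch2-11cKO, against 607, 895 and 872 in WT. Cd7 varied most among the mutant arrays, with an SD of 1.10 (n = 2) untreated and 0.88 (n = 3) after SRBC on the log2 scale, against 0.062 (n = 2) and 0.31 (n = 3) in WT.

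Havcr2 had an intensity of 89.0 and 135 in Notch2-11cKO untreated arrays, against 1248 and 1337 in WT untreated arrays. After SRBC it was 144, 77.0 and 197 in Notch2-11cKO, against 725, 1222 and 997 in WT. Both gaps were wide, 11.8-fold untreated and 7.41-fold after SRBC. When all genes were ordered from the lowest log2 difference, Havcr2 ranked 9 untreated and 6 after SRBC, and Cd7 ranked 5 and 27. The genes were chosen on this contrast, so nothing is read from these ranks. Kit, the progenitor receptor, had 148 and 239 in Notch2-11cKO untreated arrays, against 952 and 859 in WT untreated arrays. After SRBC it was 264, 263 and 343 in Notch2-11cKO, against 805, 730 and 737 in WT. The mutant arrays of Kit were all below the WT arrays, 4.81-fold untreated and 2.63-fold after SRBC on average.

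The gap between genotypes was larger untreated than after SRBC for all 6 genes. It closed most for Bank1, with a log2 difference of -2.13 untreated and -0.43 after SRBC, and for Cd7, with -3.69 and -1.93. It closed least for Cd5, with -1.47 and -1.10, and for Havcr2, with -3.56 and -2.89. The change of the gap is the same quantity as the difference of responses tested below. None of the 6 genes passed that test outside the alternatives given there, and its sign is not independent of the choice of the genes.

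**Figure D2:**
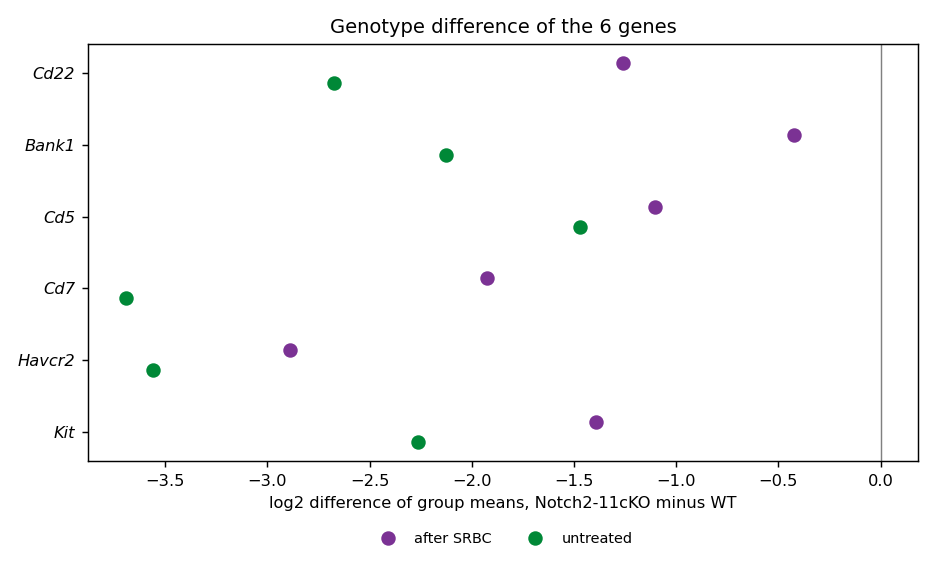
Log2 difference of group means, Notch2-11cKO minus WT (x axis), for each gene (y axis), after SRBC and untreated, with no error shown because the genes were chosen on these differences. The untreated point lies left of the SRBC point for all 6 genes, with the widest step for Cd7 and Bank1.

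The order of the 4 groups was the same at the top for every gene, WT untreated above WT SRBC. Neighbouring groups in the order overlapped in 3 places: WT untreated with WT SRBC for Cd5, and Notch2-11cKO SRBC with Notch2-11cKO untreated for Cd7 and Havcr2. At the low end, Notch2-11cKO untreated cells had the lowest mean of Bank1, Cd5, Cd7, Havcr2 and Kit. Cd22 alone was lowest in Notch2-11cKO SRBC cells, with a mean log2 intensity of 5.30 ± 0.057 (SD, n = 3), against 5.72 ± 0.069 (SD, n = 2) in Notch2-11cKO untreated cells.

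The response of Notch2-11cKO cDC2 to SRBC asks whether these low levels moved with immunization. None of the 6 genes passed the test in this genotype (limma across all 19938 genes, Benjamini-Hochberg adjusted p below 0.05, two-sided), where 61 genes or 0.306% were called. Values, as log2 differences ± SE, were 0.74 ± 0.49 for Cd7, 0.61 ± 0.22 for Kit, 0.60 ± 0.22 for Bank1, 0.32 ± 0.26 for Cd5, 0.24 ± 0.36 for Havcr2 and -0.42 ± 0.19 for Cd22. The adjusted p lay between 0.362 and 0.887 in limma. At an unadjusted p under 0.05 there were 3 of 6 (Bank1, Kit and Cd22), against 10% of all genes. Bank1, Cd5 and Kit were higher in every SRBC array than in every untreated array (16.1% of all genes), and Cd22 was lower in every one (12.2%). The 95% interval of the difference was -0.84 to -0.0040 for Cd22, 0.12 to 1.07 for Bank1 and 0.12 to 1.10 for Kit. The median of the 6 was 0.46, against 0.031 over all genes. The Notch2-11cKO untreated arrays are the baseline here and also entered the choice of the genes. These counts and this median are therefore not independent of that choice.

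In WT cDC2 both B cell genes were lower after SRBC. Cd22 fell by 1.83 ± 0.19 on the log2 scale, 3.57-fold (limma, adjusted p = 0.000641; n = 3 SRBC and 2 untreated), and Bank1 fell by 1.11 ± 0.22, 2.15-fold (limma, adjusted p = 0.0176). Over all genes 3.79% were called in this comparison and 1.97% were called lower, and 16.8% had an unadjusted p under 0.05. The call of Cd22 held with any single array left out, with an adjusted p of at most 0.0217 in all alternatives run. The call of Bank1 was lost without WT untreated 1 (limma, adjusted p = 0.0846), WT untreated 2 (0.179) or WT SRBC 2 (0.0595), and when only the WT arrays were fitted (0.0637).

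The other 4 genes did not pass in WT cells. Cd7 had a log2 difference of -1.02 ± 0.49 (95% interval -2.10 to 0.056; limma, adjusted p = 0.327), and it passed only when the WT arrays were fitted alone (adjusted p = 0.0429). Havcr2 had -0.43 ± 0.36, Kit -0.26 ± 0.22 and Cd5 -0.051 ± 0.26, with adjusted p of 0.621, 0.634 and 0.956 in limma. Of the 6 genes 5, all but Cd5, were lower in every WT SRBC array than in every WT untreated array, as were 15.7% of all genes. The median of the 6 was -0.73, against 0.025 over all genes. The WT untreated arrays are the baseline here and also entered the choice of the genes. The falls of the 6 in WT are therefore not independent of that choice.

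**Figure D3:**
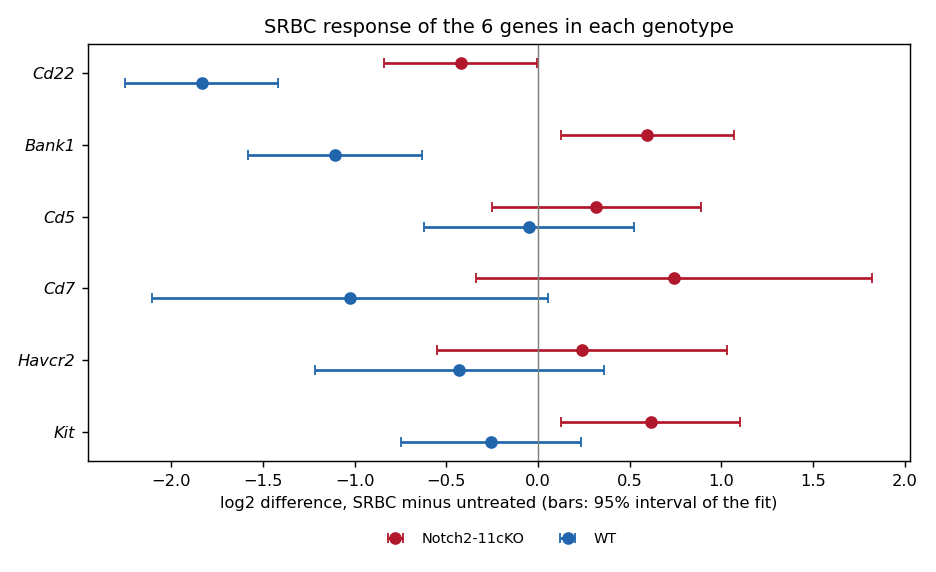
Log2 difference between SRBC and untreated arrays (x axis) for each gene (y axis) in Notch2-11cKO and in WT cells, with the 95% interval of the limma fit. In WT only Cd22 and Bank1 passed the adjusted threshold, both below 0; in Notch2-11cKO no gene passed, and 5 of 6 points lie above 0.

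The responses of the genotypes were compared as the Notch2-11cKO response minus the WT response. This difference was above 0 for all 6 genes, from 0.37 ± 0.37 for Cd5 to 1.77 ± 0.70 for Cd7, and no gene of the 6 passed, as against 4 of all genes (0.0201%). It was 1.70 ± 0.31 for Bank1 and 1.41 ± 0.27 for Cd22, both at an adjusted p of 0.146 in limma. At an unadjusted p under 0.05 there were 4 of the 6 (Bank1, Cd22, Kit and Cd7), against 6.47% of all genes. Bank1 and Kit were higher in every SRBC array of Notch2-11cKO and lower in every SRBC array of WT, a pattern seen in 0.833% of all genes. Without WT SRBC 1 and Notch2-11cKO SRBC 3 both B cell genes passed, Cd22 at 1.57 (limma, adjusted p = 0.00498) and Bank1 at 1.66 (adjusted p = 0.00956), in a fit that called 604 genes. Cd22 also passed without WT SRBC 1 alone (adjusted p = 0.0367), and both passed with array weights (0.0287 for Cd22 and 0.0294 for Bank1). The genes were chosen for being low in Notch2-11cKO relative to WT, and the untreated arrays behind that choice are the baseline of both responses. The sign of this difference is therefore not independent of the choice, for these genes as a group.

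Genes known to respond to tissue digestion and handling moved with treatment in both genotypes. The mean log2 intensity of 14 heat shock and immediate-early genes was 8.58 to 9.57 in Notch2-11cKO SRBC arrays, against 10.36 to 10.51 in Notch2-11cKO untreated arrays. It was 8.51 to 8.99 in WT SRBC arrays, against 10.62 to 10.82 in WT untreated arrays. Its part in the responses of Cd22 and Bank1 was not tested.

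Markers of lymphocytes were examined beside the 6 genes, since a sort can hold other cells. Of 18 measured B cell markers 2 were lower in untreated Notch2-11cKO cells, Ms4a1 (CD20; -1.39 ± 0.28) and the coreceptor Cd72 (-1.68 ± 0.40), and 2 were higher, Cd37 (1.04 ± 0.18) and the repressor Bach2 (1.13 ± 0.25; limma, adjusted p from 0.00638 to 0.0352). Over all genes 5.11% were called, 2.16% lower and 2.95% higher. After SRBC Ms4a1 was lower and Cd37 and Bach2 were higher, where 5.32% of all genes were called, 1.96% lower and 3.36% higher. The B cell receptor gene Cd79a had log2 intensity of 2.85 to 2.98 in Notch2-11cKO untreated arrays and 2.49 to 2.66 in WT untreated arrays. The B lineage factor Ebf1 was at 3.09 to 3.37 in Notch2-11cKO untreated and 2.95 to 3.42 in WT untreated arrays. Neither Cd79a nor Ebf1 passed the test in any comparison, and these values lay below the median log2 level over all genes, 5.06. After SRBC Blk had a difference of -1.06 ± 0.31 and Cd79b, the partner of Cd79a, one of 0.67 ± 0.23. These 2 went in opposite directions and did not pass (limma, adjusted p = 0.0746 and 0.133). The summed intensity of the list was 1370 to 1488 in Notch2-11cKO untreated and 1155 to 1263 in WT untreated arrays, and 911 to 1142 in Notch2-11cKO SRBC and 868 to 1112 in WT SRBC arrays. The untreated calls of Ms4a1, Cd37 and Bach2 were each lost without WT untreated 1, WT untreated 2 or 1 Notch2-11cKO untreated array, and that of Cd72 without any of 6 arrays (limma, adjusted p up to 0.304). After SRBC the call of Cd37 held with any single array left out, while that of Bach2 was lost without any of 7 arrays (up to 0.13) and that of Ms4a1 without any of 9 (up to 0.161) or without both arrays that stood apart (0.0659).

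Of 17 T cell markers none was lower in untreated Notch2-11cKO cells and 1 was higher, the interleukin-7 receptor Il7r (2.14 ± 0.20; limma, adjusted p = 0.000103), and none passed after SRBC. At an unadjusted p under 0.05 in limma none was lower at either time and 2 were higher after SRBC. Log2 intensity of Cd3g, of the T cell receptor complex, was 3.10 to 3.33 in Notch2-11cKO untreated and 3.31 to 3.34 in WT untreated arrays, and that of the costimulatory receptor Cd28 was 3.55 to 3.64 in Notch2-11cKO untreated and 3.51 to 3.89 in WT untreated arrays. The summed intensity of T cell markers was 688 to 707 in Notch2-11cKO untreated and 414 to 438 in WT untreated arrays, and 1001 to 1178 in Notch2-11cKO SRBC and 841 to 897 in WT SRBC arrays. Il7r was the only T cell marker called, and the median log2 difference of the list was -0.0906 untreated and 0.0609 after SRBC, against -0.024 and -0.020 over all genes. Of 13 NK and innate lymphoid markers only the lectin Klrd1 was lower untreated (-0.68 ± 0.17), and Klrd1, Klre1 and Txk were lower after SRBC. Il18rap went the other way after SRBC and did not pass (0.84 ± 0.24, adjusted p = 0.072 in limma). At an unadjusted p under 0.05 in limma 5 were lower and 1 was higher after SRBC. The untreated call of Klrd1 was lost without any of 7 arrays, and after SRBC those of Klrd1, Klre1 and Txk were lost without any of 3, 6 and 9 arrays. Without both arrays that stood apart Txk did not pass after SRBC (limma, adjusted p = 0.0882). The summed intensity of the 13 markers was 895 to 1041 in Notch2-11cKO untreated and 1324 to 1539 in WT untreated arrays. It was 1153 to 1279 in Notch2-11cKO SRBC and 1752 to 1945 in WT SRBC arrays, lower in the mutant as Cd7 was, though a sum weighs bright genes most. The median log2 difference of the NK and innate lymphoid list was -0.0968 untreated and -0.112 after SRBC. The part of these markers in the level of Cd7 was not tested. The NK receptor Ncr1 had log2 intensity of 3.34 to 3.37 in Notch2-11cKO untreated and 3.09 to 3.21 in WT untreated arrays. Of 10 plasmacytoid dendritic cell markers Cox6a2 (1.38 ± 0.29 untreated and 1.66 ± 0.24 after SRBC) and the transcription factor Tcf4 (0.90 ± 0.21 and 0.74 ± 0.17) were higher in Notch2-11cKO at both times, Bst2 was higher after SRBC (1.48 ± 0.23), and Lair1 was lower at both times (-2.45 ± 0.25 and -0.99 ± 0.20). The untreated calls of Tcf4 and Cox6a2 were lost without any of 6 and 4 arrays, and after SRBC that of Tcf4 was lost without any of 6 and that of Lair1 without WT SRBC 3 (limma, adjusted p up to 0.215). The summed intensity of these markers was 937 to 1101 in Notch2-11cKO untreated and 819 to 971 in WT untreated arrays, and 967 to 1400 in Notch2-11cKO SRBC and 674 to 778 in WT SRBC arrays. Its part in the levels of the 6 genes was not tested.

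**Figure D4:**
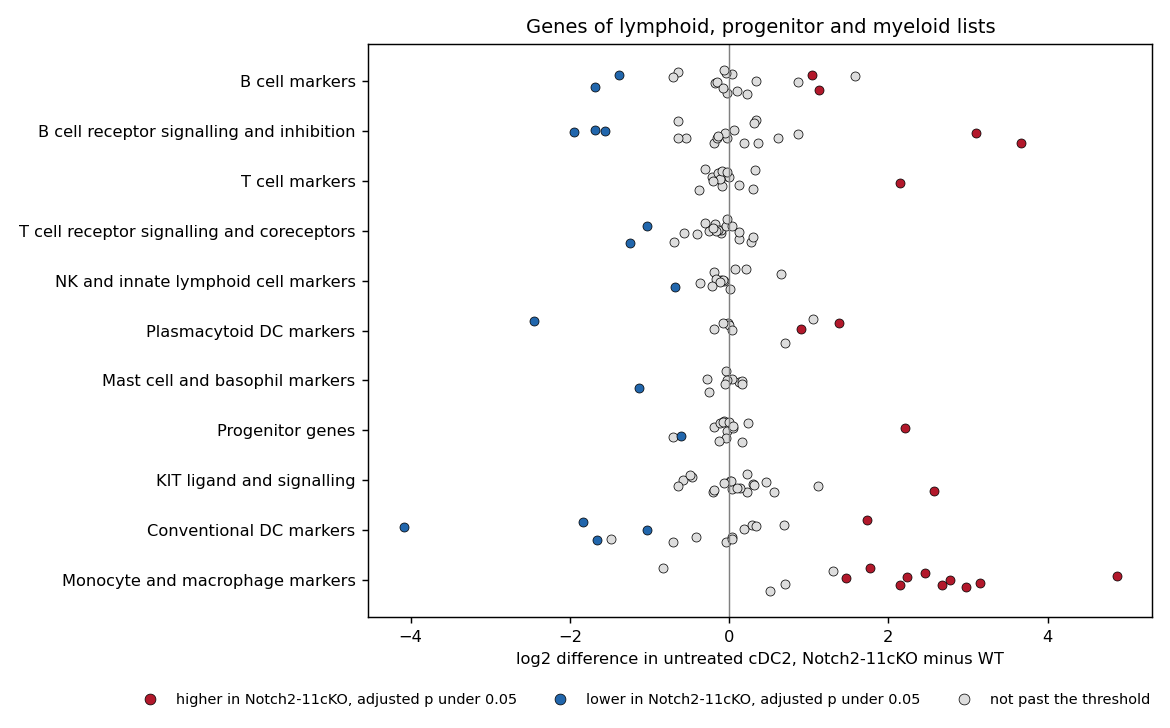
Log2 difference in untreated cells, Notch2-11cKO minus WT (x axis), of each measured gene of 11 lists (rows), with colour for genes past an adjusted p of 0.05 in limma. Most lymphoid and progenitor genes lie near 0, while 10 of 14 monocyte and macrophage markers are higher in Notch2-11cKO. Of 20 genes of B cell receptor signalling 2 are higher and 3 lower, and 5.11% of all genes were called. Dim genes are included, in which a difference could be missed.

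For Kit, markers of mast cells and basophils were read in the same way. Of 10 measured, 1 was lower in untreated Notch2-11cKO cells, the histidine decarboxylase Hdc (-1.13 ± 0.26; limma, adjusted p = 0.0264, lost without any 1 of the 4 untreated arrays), and none passed after SRBC, where 1 was lower at an unadjusted p under 0.05 in limma. The protease Cpa3 had log2 intensity of 3.02 to 3.07 in Notch2-11cKO untreated and 3.17 to 3.44 in WT untreated arrays, and the IgE receptor chain Fcer1a had 2.39 to 2.65 in Notch2-11cKO untreated and 2.53 to 2.59 in WT untreated arrays. The summed intensity of the list was 154 to 161 in Notch2-11cKO untreated and 190 to 202 in WT untreated arrays, and 157 to 174 in Notch2-11cKO SRBC and 177 to 196 in WT SRBC arrays, lower in the mutant as Kit was. The median log2 difference of this list was -0.0381 untreated and -0.0637 after SRBC, against -0.024 and -0.020 over all genes. The part of these markers in the level of Kit was not tested. Of 15 progenitor genes Meis1 was lower (-0.61 ± 0.15) and Cebpa higher (2.20 ± 0.25; limma, adjusted p = 0.043 and 0.00036), the first lost without any of 7 arrays. Flt3, a receptor of the same kinase class as Kit, did not pass (-0.70 ± 0.28 untreated and -0.47 ± 0.23 after SRBC), and Csf1r, the macrophage colony-stimulating factor receptor, was higher (2.24 ± 0.22 and 1.71 ± 0.18). Pdgfra and Pdgfrb, the rest of that class, had differences of -0.0043 and 0.035 untreated. Of 20 genes of KIT signalling Mitf, a transcription factor of mast cells and macrophages, was higher at both times (2.57 ± 0.27 and 2.33 ± 0.22), and Pik3r1 was lower after SRBC (-0.86 ± 0.17, lost without WT SRBC 2 at an adjusted p of 0.0518). The other 19 untreated and 18 after SRBC did not pass, Kitl, encoding stem cell factor, among them.

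The partners of CD22 and BANK1 in B cell receptor signalling moved both ways. Of 20 measured, 3 were lower in untreated Notch2-11cKO cells and 2 were higher. Siglecg, encoding the Siglec that also restrains B cell receptor signalling, had log2 intensity of 6.52 and 6.68 in Notch2-11cKO untreated arrays, against 8.47 and 8.63 in WT untreated arrays. Siglecg was lower at both times, with log2 differences of -1.95 ± 0.31 untreated (limma, adjusted p = 0.00337) and -1.85 ± 0.26 after SRBC (adjusted p = 0.00139), and unlike Cd22 it did not pass in the WT response (0.18 ± 0.29, adjusted p = 0.824). Pik3ap1, an adaptor of phosphoinositide 3-kinase related to BANK1, was lower at both times as well (-1.56 ± 0.23 and -1.09 ± 0.18). The adaptor Blnk was much higher in Notch2-11cKO (3.67 ± 0.26 and 2.48 ± 0.21), as was the inhibitory Fc receptor Fcgr2b (3.10 ± 0.31 and 2.64 ± 0.25). The calls of Siglecg, Pik3ap1, Blnk and Fcgr2b held at both times with any single array left out. Ptpn6, the phosphatase SHP-1 that CD22 recruits, did not pass untreated (-0.65 ± 0.24), but fell in the WT response to SRBC with Cd22 (-1.07 ± 0.22; adjusted p = 0.0205, and up to 0.182 without either WT untreated array, WT SRBC 2 or WT SRBC 3).

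Of the 7 other Siglec genes Siglecg alone was called lower in Notch2-11cKO at either time, Siglece had -1.16 ± 0.33 untreated (limma, adjusted p = 0.0789), and Cd33 was higher at both times (0.93 ± 0.21 and 0.66 ± 0.17), with Siglec1 higher after SRBC (0.60 ± 0.15). The calls of Cd33 and Siglec1 after SRBC were lost without any of 9 and 7 arrays, and that of Cd33 untreated without any 1 of the 4 untreated arrays. Siglece was lower in WT cells after SRBC (-1.62 ± 0.30, adjusted p = 0.014 in limma), as Cd22 was, and lost that call without WT untreated 1, WT untreated 2 or WT SRBC 2 (adjusted p up to 0.147). Of 9 scavenger receptor cysteine-rich and related genes, which include the closest relative of Cd5, none was lower at either time, also at an unadjusted p under 0.05 in limma. Cd6, that relative, had log2 intensity of 4.78 to 5.06 in Notch2-11cKO untreated and 4.89 to 5.04 in WT untreated arrays. Msr1 (3.07 ± 0.33), Lgals3bp (1.92 ± 0.29) and Cd163 (1.47 ± 0.25), which encode macrophage proteins, were higher in untreated Notch2-11cKO cells and also after SRBC, the untreated call of Cd163 being lost without WT untreated 1 or Notch2-11cKO untreated 1 (adjusted p up to 0.0594). Of 21 genes of T cell receptor signalling, Cd4 (-1.03 ± 0.22) and the phosphatase Ptpn22 (-1.25 ± 0.26) were lower untreated, and Ptpn22 (-1.18 ± 0.22) and the ubiquitin ligase Cblb (-0.91 ± 0.23) after SRBC. The untreated calls of Cd4 and Ptpn22 were lost without WT untreated 1, WT untreated 2 or Notch2-11cKO untreated 1 (adjusted p up to 0.218), that of Ptpn22 also without Notch2-11cKO untreated 2, and that of Cblb after SRBC without any of 9 arrays or without both arrays that stood apart (adjusted p = 0.0565).

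The genes read as partners of HAVCR2 and CD7 gave no calls between untreated genotypes. None of the 8 measured TIM family and HAVCR2 partner genes passed between untreated genotypes, where 430 genes or 2.16% were lower and 589 or 2.95% higher in limma. The count at an unadjusted p under 0.05 was 0 as well. After SRBC Lgals9, encoding the HAVCR2 ligand galectin-9, was higher in Notch2-11cKO (1.09 ± 0.20, adjusted p = 0.0071) and Ceacam1, encoding another reported partner, was lower (-1.77 ± 0.30, adjusted p = 0.00465), and both calls held with any single array left out. In the WT response they moved in the opposite directions, Lgals9 down (-0.98 ± 0.22) and Ceacam1 up (1.84 ± 0.33; limma, adjusted p = 0.0318 and 0.0118), where 1.82% of all genes were called higher. Both of these calls were lost without either WT untreated array (limma, adjusted p up to 0.285). That of Lgals9 was also lost without WT SRBC 2, WT SRBC 3 or Notch2-11cKO SRBC 1. Sectm1a and Sectm1b, relatives of the gene that encodes a CD7 ligand in humans, did not pass in any of the 5 comparisons. Their summed intensity was only 25 to 34 over the arrays, about the array median of 29.5 to 31.7 for 1 probe set. A difference in these 2 genes could therefore be missed.

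Dendritic cell genes and monocyte and macrophage markers also differed between the genotypes. Of 15 conventional dendritic cell genes 4 were lower and 1 was higher in untreated Notch2-11cKO cells, and 2 were lower and 2 higher after SRBC. Clec4a4, the lectin DCIR2 of ESAM-high cDC2, was lower in Notch2-11cKO (-4.09 ± 0.35 untreated and -2.91 ± 0.29 after SRBC), and so was Esam (-1.84 ± 0.33 and -1.15 ± 0.27). The call of Esam was lost without WT untreated 1 or Notch2-11cKO untreated 1 in untreated cells (adjusted p up to 0.0689) and without any of 6 arrays after SRBC (up to 0.099). Cd4 and the transcription factor Bcl11a (-1.67 ± 0.39) were lower untreated, and the call of Bcl11a was lost without any 1 of the 4 untreated arrays. Cd209a, a C-type lectin, was higher at both times (1.73 ± 0.23 and 2.07 ± 0.19), and the integrin Itgam was higher after SRBC (1.82 ± 0.17), calls that held with any single array left out. Of 14 monocyte and macrophage markers 10 were higher untreated and 11 after SRBC, opposite in sign to the 6 genes. They included the chemokine receptor Ccr2 (4.87 ± 0.35 and 4.29 ± 0.29) and the lysozyme Lyz2 (2.68 ± 0.20 and 2.59 ± 0.16). Their summed intensity was 13336 to 14954 in Notch2-11cKO untreated and 3283 to 3677 in WT untreated arrays, and 12850 to 16061 in Notch2-11cKO SRBC and 3470 to 4704 in WT SRBC arrays. The part of these markers in the levels of the 6 genes was not tested.

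Among themselves the 6 genes had Pearson r of 0.698 to 0.961 over the 10 arrays in 15 pairs, highest for Havcr2 with Kit and lowest for Cd22 with Cd5. Every r includes the differences between the 4 groups, which all genes of the set share, so it describes these arrays only. Among the 9963 brighter genes outside the set, the 3 most like each gene by Pearson r were named. They were Dab2ip (0.988), Spns3 (0.984) and Adgra2 (0.977) for Cd22, and Ccdc102a (0.979), Lair1 (0.961) and Acap1 (0.951) for Bank1. For Cd5 they were Tbx21 (0.968), Tctex1d2 (0.963) and Rtn1 (0.962), and for Cd7 S100a11 (0.975), Mns1 (0.965) and Smc2 (0.963). For Havcr2 they were Abcb1a (0.982), Lrrk2 (0.976) and P2ry10 (0.975), and for Kit Adam23 (0.991), Tspan13 (0.988) and Dnase1l3 (0.975). No gene was among the 3 for more than 1 of the 6. Lair1, encoding an inhibitory collagen receptor, fell in the WT response as Bank1 did (-1.20 ± 0.23). Its adjusted p was 0.0148 in limma, and up to 0.154 without either WT untreated array or WT SRBC 2. Lair1 is named here for its likeness to Bank1 over these same arrays, so this shared fall is not independent of that choice.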

How the data were processed

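The 10 arrays were one-colour arrays hybridised with RNA labelled by the Ambion WT Expression and GeneChip WT Terminal Labeling kits, per the labels' protocols. Each deposited value is a linear intensity of 1 probe set, normalized by the authors; the background correction, summarisation and normalization are not given in the sources used here. No detection calls or scan dates were used.

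Values were log2 transformed. Of 28853 probe sets 21789 had 1 gene symbol, 1621 several and 5443 none, and 19938 genes were kept, each with its probe set of highest mean. Dim genes stayed in. A single limma fit (lmFit, eBayes with a mean-variance trend, 4 group means; 6 residual and 5.25 prior degrees of freedom) gave the SRBC response in each genotype, their difference, and the genotype difference in untreated and SRBC mice. Tests were two-sided with Benjamini-Hochberg adjustment over all genes and a threshold of 0.05. Adjusted p of single genes are limma's.

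The 6 genes, the gene lists and the alternatives were chosen with earlier results of these data known. Named genes were the 6 genes, Notch2, up to 4 of each list by p, the genes of short lists and the 3 most alike genes; other list genes and the 14 digestion genes were chosen after their values were seen. Of 189 list genes outside the set 178 had a probe set of their own, and the rest were not analysed here. Promoter sequences are those of RefSeq on GRCm38.p6. R 4.3.3, limma 3.58.1, Python 3.11.15, pandas 2.3.3 and matplotlib 3.10.9 were used.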

Additional observations from a re-analysis of the deposited data

Results flagged for a closer look

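For Bank1 and Kit every SRBC array lay above every untreated array in Notch2-11cKO and below every untreated array in WT, as for 0.833% of all genes. The untreated arrays of both genotypes also entered the choice of these genes, so the pattern is not independent of the choice. The Notch2-11cKO response minus the WT response was 1.70 ± 0.31 for Bank1 (limma, adjusted p = 0.146) and 0.87 ± 0.32 for Kit (adjusted p = 0.627), so neither difference passed the test. The range over the alternatives was 1.32 to 1.91 for Bank1, with an adjusted p from 0.00956 to 0.505, and 0.52 to 1.22 for Kit, with an adjusted p from 0.204 to 1.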

How the results depend on the processing

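The genotype differences of the 6 genes kept their sign in all 252 refits, and 3 moved by more than the spread between replicates, all with a pseudocount of 16: Cd22 to -2.36 untreated and -0.999 after SRBC, and Bank1 to -1.65 untreated. In the WT response the calls of Cd22 and Bank1 were kept except the 4 losses of Bank1 given above. Values that did not pass changed sign for Cd5 in WT, at 0.089 with array weights, 0.18 without both SRBC arrays that stood apart or without WT SRBC 1, and 0.30 without WT untreated 2, and otherwise down to -0.40 without WT untreated 1. In Notch2-11cKO they did so for Cd7 (-0.034) and Havcr2 (-0.062) without Notch2-11cKO untreated 1, and for Havcr2 (-0.062) without Notch2-11cKO SRBC 3 or both arrays that stood apart, with 0.62 at most without Notch2-11cKO SRBC 2. Counts of called genes moved more; the cause was not tested. The Notch2-11cKO response had 61 calls, 103 without the mean-variance trend, 267 with array weights, 23 with only the groups compared, 398 without both arrays that stood apart and 2 to 183 with 1 array left out. The WT response had 756, 1886 with array weights, 2300 without both arrays and 101 to 1331 with 1 left out. The difference of responses had 4, 2 among brighter genes, 7 without the trend, 63 with array weights, 604 without both arrays and 0 to 44 with 1 left out (limma; the 0, without WT untreated 1, had 916 genes at an unadjusted p under 0.05). Between untreated genotypes there were 1019, 1822 with array weights, 1966 with only the groups compared, 1996 without both arrays and 418 to 1390 with 1 left out; after SRBC there were 1061, 1615, 627, 2364 and 649 to 1256 in the same order. List genes called were 36 untreated (19 to 46 with 1 array left out) and 41 after SRBC (28 to 41). In the other alternatives they were 34 to 53 untreated and 28 to 55 after SRBC. Of 1344 recounts of single lists 183 moved by over 1.5 times. Deviations of arrays with the same replicate number correlated at r from -0.218 to 0.479, over 0.1 in 7 of 13 pairs and not in all, so the numbers were not taken as pairs; with a replicate block the counts were 50, 715, 6, 1175 and 1319, and no call of the 6 genes changed. Mutant values of some probe sets, Bank1 above all, lay near the array median. Whether this limited how large a gap could be measured was not tested.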
